A study of Homo sapiens with 6 samples.

Results

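The genes described here are 40 human genes of the amino acid response: the transcription factor ATF4, factors that act with it or downstream of it in stress, and the enzymes, transporters and transfer RNA (tRNA) synthetases that supply amino acids to the ribosome. They were listed by symbol for their roles, with earlier results of these libraries known, and all 40 were found among the 61498 genes of the deposited tables. They fall into 10 stress factors, 11 synthesis enzymes, 9 transporters and 10 genes of tRNA charging and export. RNA was sequenced in 3 untreated human cell lines, 2 libraries each, after removal of ribosomal RNA. The labels give all 3 as B lymphocytes. RPMI-8226 is a line grown from a multiple myeloma, a cancer of antibody-secreting plasma cells. RPMI-8226-R was derived from it and is resistant to bortezomib, an inhibitor of the proteasome. The remaining line carries the label NCI-BL2171. The labels do not say whether paired libraries are separate cultures, so the spread behind each p-value may be technical only.

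ATF4 is made when kinases that sense amino acid shortage, unfolded protein in the endoplasmic reticulum, haem shortage or viral RNA phosphorylate the initiation factor eIF2. Most protein synthesis then slows, while the ATF4 message is translated better. ATF4 pairs with C/EBP proteins on a composite DNA element and raises genes that import and make amino acids and charge tRNAs, and, under lasting stress, genes such as DDIT3 (CHOP) that promote cell death. Plasma cells secrete large amounts of protein and draw heavily on amino acid supply. ATF4 is controlled mainly at translation, so its mRNA level is not a measure of its protein.

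The 6 libraries held 23952370 to 29052199 estimated reads. Levels of a gene across libraries are given as CPM, counts scaled to library size after TMM normalisation, and were compared between lines with edgeR. Levels of different genes are compared only as TPM, which take transcript length into account. Means are ± SD over 2 libraries, log2 fold changes are ± SE, and p-values are two-sided and adjusted over 20081 genes with a threshold of 0.05. Of 8 plasma cell markers, 7 reached 1 TPM in each RPMI line, with summed levels of 2922 to 3063 and 4177 to 4305 TPM. In the libraries labelled NCI-BL2171 the same list summed to 2.86 to 3.07 TPM, 2 of 8 B cell markers reached 1 TPM, and MS4A1 and PAX5, which define B cells, were at 0. The B cell list summed to 5.37 to 5.46 TPM there, 13.9 to 14.98 in RPMI-8226 and 0.663 to 0.724 in RPMI-8226-R. All 10 erythroid markers were present in those libraries, at 48371 to 50387 TPM in sum, against 60.5 to 63.6 in RPMI-8226 and 171 to 187 in RPMI-8226-R. These values go against the label of that group, which is therefore named below by its label only. T cell, myeloid and fibroblast lists summed to at most 15.8 TPM in the RPMI libraries, and the myeloid list to 50.1 to 52.3 TPM in those labelled NCI-BL2171. Of the 4 myeloid markers only LYZ reached 1 TPM there, at 49.9 and 52.0 TPM. The part of these other cell types in the results below was not tested. In bulk RNA, fewer cells of a type and less RNA per cell cannot be told apart.

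The composite element that ATF4 binds was looked for near the starts of the 40 genes, which are listed together as ATF4-linked but moved in both directions. RefSeq promoter windows (GRCh38.p14; 250 bases before to 50 after a start) were matched by symbol for 34 of the 40. The form TGATGNAAN, on either strand, was found for 14 of these 34 genes, 41.2%, against 4.45% of the 27305 genes in the table, and the stricter TGATGCAA for 9, against 1.08%. The stricter form is contained in the first, so the counts overlap. A gene counted if any of its windows matched. The 34 genes had 55 windows and the 27305 genes 35116, so the 34 had more windows per gene. Of the 35116 windows, 3.61% held TGATGNAAN. A match of letters is not a measured binding site, and many of the 40 were listed because they are known ATF4 targets. The 8 sites below are from genes that were lower (CHAC1, CEBPG, ASNS) or higher (SLC1A4, SLC1A5, SLC38A1, IARS1, MARS1) in RPMI-8226-R than in RPMI-8226. Each is written 5′ to 3′ in the direction of the element, with the 9 matching bases in capitals.
CHAC1: ctggcaggagTGATGCAACggcaggggag
CEBPG: gcgcggcgtcTGATGCAACctgccggcaa
ASNS: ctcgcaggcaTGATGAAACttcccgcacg
SLC1A4: cggctggagaTGATGCAAAcgggagccgc
SLC1A5: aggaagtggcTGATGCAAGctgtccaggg
SLC38A1: cagacccgaaTGATGAAAAgggatcagct
IARS1: cgcacggaggTGATGCAACgcgctgaaaa
MARS1: aatccctcgcTGATGCAACcggaaccggc

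CHAC1 (minus strand, chr15:40953251-40953279), MARS1 (minus strand, chr12:57488053-57488081) and IARS1 (plus strand, chr9:92293693-92293721) hold the identical 9 bases TGATGCAAC on the strand opposite to the gene. CEBPG (plus strand, chr19:33374061-33374089) holds the same 9 bases on the gene's own strand. The ASNS site (minus strand, chr7:97872458-97872486) begins 68 bases before the start, that of SLC1A5 (minus strand, chr19:46784893-46784921) 97 bases and that of CHAC1 210 bases. In SLC1A4 (minus strand, chr2:64989381-64989409), SLC38A1 (minus strand, chr12:46266502-46266530) and MARS1 the 9 bases run across the start. Of the 14 genes with a match, 7 were higher, 6 lower and 1 did not pass in RPMI-8226-R against RPMI-8226. Of the 20 with a window and no match in it, 8 were higher, 10 lower and 2 did not pass. Genes with and without these letters thus went in both directions.

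The resistant line is compared with its parent first, the contrast to which the title of the study refers. In RPMI-8226-R the stress factors were mostly lower and the transporters mostly higher. Of the 10 genes of tRNA charging and export 5 were higher and 2 lower. Of the 40 genes, 17 were higher and 18 lower in RPMI-8226-R, 4 did not pass, and ALDH1L2, with at most 4 reads in any library of either line, is given no fold. Over all genes tested, 28.5% were higher and 37.2% lower, 65.6% in all. With a change of at least 2-fold, 5 of the 40 were higher and 10 lower, against 11.8% and 21.5% of all genes, 33.3% in all. Passing the threshold is thus the rule among all genes here, and the direction and size of each change carry more of the description than the call. All 40 passed the filter on low counts, ALDH1L2 through the libraries labelled NCI-BL2171 alone. The median log2 fold change was -1.24 for the stress factors, -0.77 for the synthesis enzymes, 0.89 for the transporters and 0.14 for tRNA charging, beside -0.12 for all genes tested. With total counts in place of TMM the calls over all genes turned from 43.4% to 54.0% higher, and the median of all genes moved from -0.12 to 0.04. On the scale of log2(TPM + 1), 60.7% of the calls were higher, the median of all genes was 0.08, and the 4 group medians were -0.86, -0.37, 1.22 and 0.50 in that order. Signs of the 40 genes that turned under either scaling are given with the gene.

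**Figure D1:**
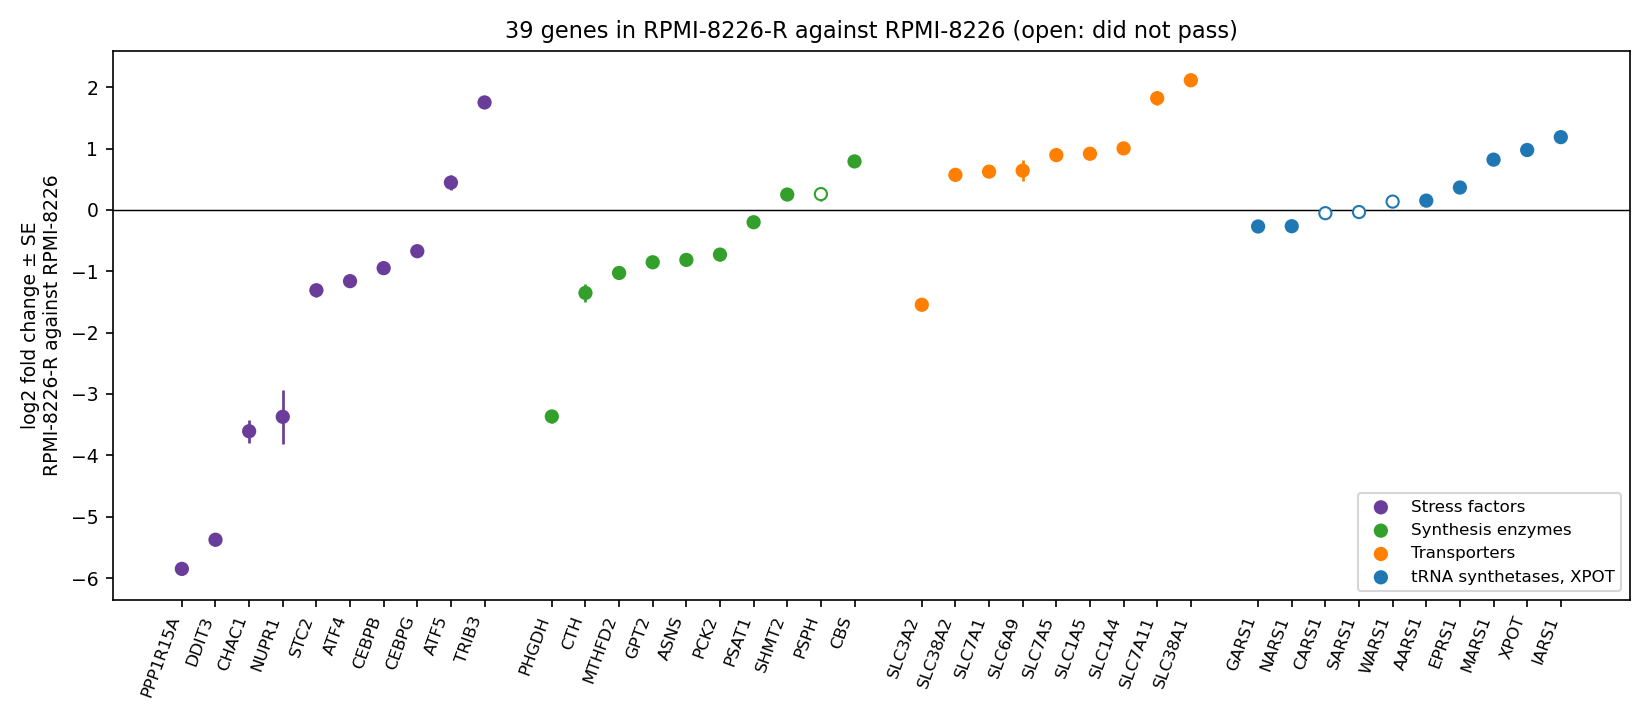
Log2 fold change of 39 of the 40 genes in RPMI-8226-R against RPMI-8226 (y axis, bars ± SE of the edgeR fit), grouped by role and ordered within each group; filled points passed the adjusted p threshold of 0.05 and open points did not. PPP1R15A and DDIT3 lie lowest at -5.85 and -5.38, SLC38A1 and SLC7A11 highest at 2.11 and 1.82, and ALDH1L2 is left out because it had almost no reads in either line.

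Among the stress factors, 8 of 10 were lower and 2 higher in RPMI-8226-R, against 37.2% and 28.5% of all genes tested. ATF4 (ENSG00000128272.18; chromosome 22, 39519695 to 39522685, GRCh38) stood at 559.6 and 547 CPM in the libraries labelled NCI-BL2171, 859 and 889 in RPMI-8226 and 398 and 384 in RPMI-8226-R. The resistant line was the lowest and its parent the highest, with no overlap between lines. The fall from parent to derivative was 2.24-fold (log2 fold change -1.16 ± 0.06; edgeR adjusted p = 5.5e-13). Per length ATF4 was the most abundant of the 10 factors in each library, at 645 and 656 TPM in RPMI-8226 and 372 and 391 TPM in RPMI-8226-R. Processed copies of ATF4 held at most 9.53% as many reads as the gene itself in any library.

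The deepest falls of the 40 were in 2 genes that act late in the stress response. PPP1R15A (ENSG00000087074.8; chromosome 19, 48872392 to 48876057), the GADD34 subunit that directs a phosphatase to eIF2 and so restores translation, was at 553 and 571 CPM in the libraries labelled NCI-BL2171, 333 and 385 in RPMI-8226 and 6.01 and 6.41 in RPMI-8226-R. Both libraries of RPMI-8226-R lay far below all the others (log2 fold change against RPMI-8226 -5.85 ± 0.10; edgeR adjusted p = 2.9e-21). DDIT3 (ENSG00000175197.13; chromosome 12, 57516588 to 57521737), the pro-apoptotic factor CHOP, showed the same picture, with 172 and 163 CPM, 133 and 152 CPM and 3.34 and 3.50 CPM in that order of lines (-5.38 ± 0.10; edgeR adjusted p = 4.7e-20). DDIT3 overlaps MARS1, another of the 40 genes, by 982 bases and MBD6 by 1028 bases, both on the opposite strand in GENCODE 29. Whether the counting used strand is not given in the sources used here, so reads from these stretches may not be separable. MARS1 had 2707 to 5442 reads in the RPMI-8226 and RPMI-8226-R libraries, and DDIT3 had 3568 and 3839 in RPMI-8226 but 90 and 101 in RPMI-8226-R. PPP1R15B, which encodes the constitutive partner of the same phosphatase, fell less, from 224 ± 0.0108 to 123 ± 9.83 CPM (-0.86 ± 0.07; edgeR adjusted p = 3.5e-10).

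CHAC1, NUPR1 and STC2 were lower as well. CHAC1, which degrades glutathione and is a known target of ATF4, had 27.0 and 20.5 CPM in the libraries labelled NCI-BL2171, 18.3 and 19.4 in RPMI-8226 and 1.37 and 1.70 in RPMI-8226-R. It fell 12.2-fold from parent to derivative (edgeR adjusted p = 3.9e-13), and the 9-base element upstream of its start is the first of those printed above. NUPR1, a small stress-induced chromatin protein, was scarce throughout, at 0.697 and 0.806, 3.27 and 2.73 and 0.185 and 0.381 CPM in the same order, and its estimated reads were not whole numbers (-3.37 ± 0.44 from parent to derivative; edgeR adjusted p = 7.3e-07; -3.97 without the second RPMI-8226-R library). STC2, a secreted glycoprotein induced in stress, was highest in RPMI-8226 at 34.4 and 35.1 CPM, with 13.3 and 14.7 in RPMI-8226-R (-1.31 ± 0.11; edgeR adjusted p = 8.1e-10) and 11.6 and 12.4 in the libraries labelled NCI-BL2171. These last 2 groups did not pass against each other (edgeR adjusted p = 0.0788), but did so without the first RPMI-8226-R library (edgeR adjusted p = 0.0425).

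The C/EBP partners fell less than the late factors. CEBPB went from 36.8 ± 1.54 to 19.1 ± 0.516 CPM (-0.95 ± 0.09; edgeR adjusted p = 4.3e-09) and CEBPG from 42.6 ± 1.09 to 26.7 ± 0.635 CPM (-0.67 ± 0.08; edgeR adjusted p = 3.4e-07). Both were highest in the libraries labelled NCI-BL2171, at 81.4 ± 4.04 and 62.1 ± 2.02 CPM.

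TRIB3 and ATF5 were the exceptions. TRIB3 (ENSG00000101255.12; chromosome 20, 362835 to 397559), a pseudokinase that is induced by ATF4 and CHOP and restrains both, had 14.9 and 14.0 CPM in RPMI-8226 and 52.2 and 45.2 CPM in RPMI-8226-R, below 102 and 94.9 CPM in the libraries labelled NCI-BL2171. The groups did not overlap, and the rise from parent to derivative was 3.37-fold (1.75 ± 0.09; edgeR adjusted p = 7.7e-13). It went against DDIT3 and CHAC1 in the same libraries. ATF5, a factor related to ATF4 and also controlled at translation, had 6.73 and 8.85 CPM in RPMI-8226 and 10.6 and 10.6 CPM in RPMI-8226-R (0.45 ± 0.12; edgeR adjusted p = 0.00314), a call lost without the first RPMI-8226 library (0.26; edgeR adjusted p = 0.123). In the libraries labelled NCI-BL2171 it stood at 94.3 and 93.4 CPM, far above both. ATF5 overlaps NUP62 by 1062 bases and IL4I1 by 838 bases, both on the opposite strand. NUP62 had 5381 to 7175 reads in the RPMI-8226 and RPMI-8226-R libraries against 181 to 306 for ATF5. IL4I1 had 462 and 417 reads in RPMI-8226 and 16.9 and 10.4 in RPMI-8226-R. The level of ATF5 in these 2 lines is therefore uncertain.

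**Figure D2:**
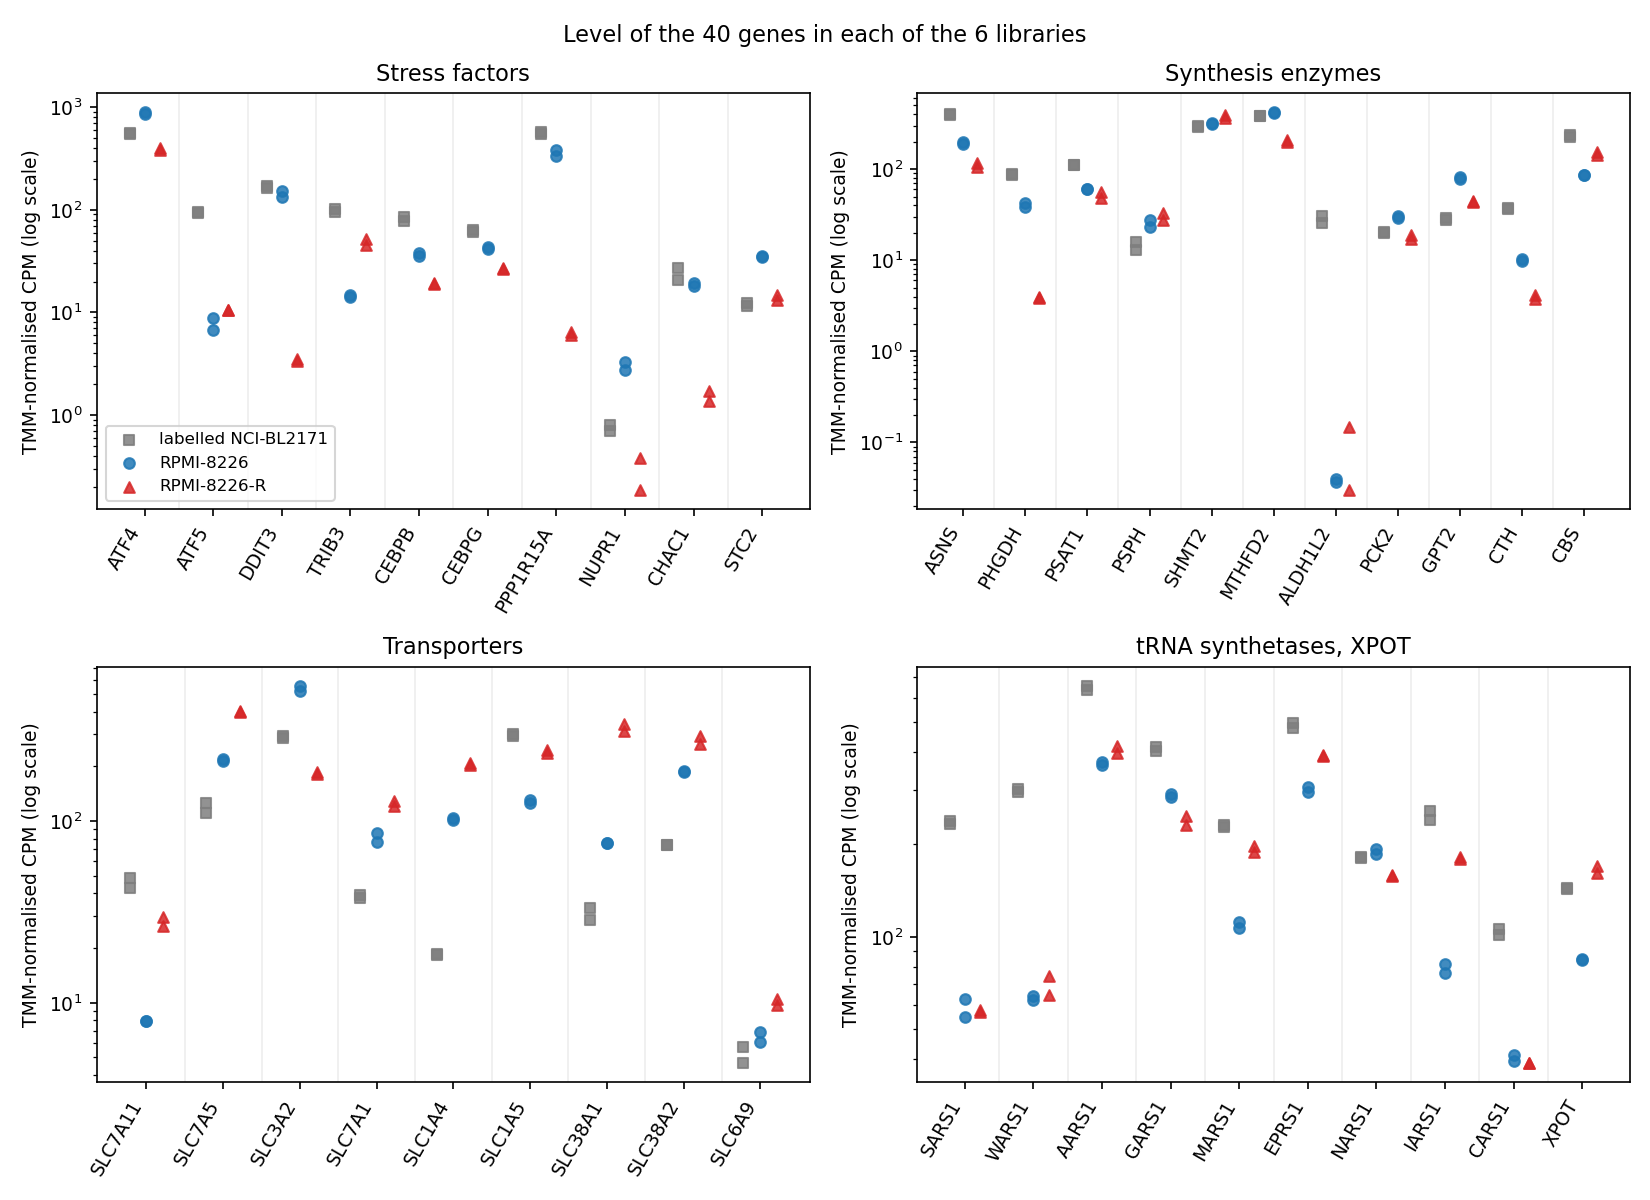
TMM-normalised CPM (y axis, log scale) of each of the 40 genes in each of the 6 libraries; squares stand for the libraries labelled NCI-BL2171, circles for RPMI-8226 and triangles for RPMI-8226-R, 2 points each, and a level of 0 is drawn at 0.03. The RPMI-8226-R points of PPP1R15A, DDIT3, CHAC1 and PHGDH lie below those of the other lines, and those of SLC7A5, SLC38A1 and SLC1A4 lie above them.

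Amino acid transporters went the other way. Of 9, 8 were higher and 1 lower in RPMI-8226-R, against 28.5% and 37.2% of all genes tested. SLC38A1 (ENSG00000111371.16; chromosome 12, 46183063 to 46270017), a sodium-coupled importer of glutamine and other neutral amino acids, was at 28.6 and 33.2 CPM in the libraries labelled NCI-BL2171, 75.8 and 75.6 in RPMI-8226 and 312 and 343 in RPMI-8226-R. The 3 lines formed a rising series without overlap, and the step from parent to derivative was 4.33-fold (2.11 ± 0.07; edgeR adjusted p = 9.1e-16). Its neighbour on chromosome 12 SLC38A2, which carries similar substrates and is induced by amino acid shortage, rose less, from 189 ± 1.45 to 280.2 ± 21.4 CPM (0.57 ± 0.06; edgeR adjusted p = 1.1e-07).

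SLC1A4 and SLC1A5 exchange small neutral amino acids, SLC1A5 chiefly glutamine. SLC1A4 had 18.2 and 18.5 CPM in the libraries labelled NCI-BL2171, 104 and 102 in RPMI-8226 and 204 and 208 in RPMI-8226-R, a 2.00-fold rise from parent to derivative (1.00 ± 0.06; edgeR adjusted p = 1.5e-11). SLC1A5 rose by nearly as much, from 128 ± 2.55 to 242 ± 5.49 CPM (0.92 ± 0.06; edgeR adjusted p = 3.4e-11), but here the libraries labelled NCI-BL2171 were highest at 299 ± 5.84 CPM. Per length, SLC1A5 exceeded SLC1A4 with ratios of TPM of 2.00 and 2.10 in the 2 RPMI-8226 libraries and 1.87 and 1.71 in those of RPMI-8226-R, against 28.8 and 25.3 in those labelled NCI-BL2171.

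SLC3A2 was the 1 transporter gene that fell. It encodes the heavy chain (CD98) that brings light chains such as SLC7A5 and SLC7A11 to the membrane. SLC3A2 (ENSG00000168003.18; chromosome 11, 62856102 to 62888875) had 294 and 287 CPM in the libraries labelled NCI-BL2171, 521 and 556 in RPMI-8226 and 186 and 183 in RPMI-8226-R, so that the derivative was the lowest and the parent the highest. It fell 2.92-fold (-1.55 ± 0.06; edgeR adjusted p = 8.9e-15). SLC7A5 (LAT1), which imports leucine and other large neutral amino acids, rose from 217 ± 2.77 to 403 ± 3.76 CPM (0.89 ± 0.07; edgeR adjusted p = 1.6e-10). The ratio of SLC3A2 to SLC7A5, in TPM within a library, was 7.27 and 8.25 in the libraries labelled NCI-BL2171 and 7.02 and 7.35 in RPMI-8226, but 1.21 and 1.25 in RPMI-8226-R. Of the 3 lines, the resistant one had the heavy chain message nearest in level to that of this light chain.

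SLC7A11 (xCT), the cystine importer that feeds glutathione synthesis, had 7.96 and 7.91 CPM in RPMI-8226 and 26.5 and 29.5 CPM in RPMI-8226-R, below 42.9 and 48.7 CPM in the libraries labelled NCI-BL2171. The groups did not overlap (1.82 ± 0.11 from parent to derivative; edgeR adjusted p = 9.4e-12). Per length it stayed far below SLC7A5, at 3.46 and 4.13 against 94.5 and 102 TPM in RPMI-8226-R. SLC7A1 (CAT1), which imports arginine and lysine, rose from 81.3 ± 6.02 to 125 ± 4.84 CPM (0.62 ± 0.07; edgeR adjusted p = 1.4e-07). SLC6A9, the glycine transporter GLYT1, rose from 6.48 ± 0.614 to 10.1 ± 0.489 (0.64 ± 0.17; edgeR adjusted p = 0.00221). It overlaps CCDC24 on the opposite strand, which had 56 to 147 reads in these libraries, so its counts may not be separable.

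Enzymes that make amino acids or one-carbon units were mostly lower in RPMI-8226-R: 7 fell, 2 rose, 1 did not pass and ALDH1L2 had almost no reads. Over all genes tested 37.2% were lower and 28.5% higher. The 3 enzymes of serine synthesis, which act in series, did not move together. PHGDH (ENSG00000092621.13; chromosome 1, 119648411 to 119744226), which catalyses the first step from glycolysis to serine, was at 87.0 and 87.6 CPM in the libraries labelled NCI-BL2171, 42.8 and 38.1 in RPMI-8226 and 3.90 and 3.95 in RPMI-8226-R. It fell 10.3-fold from parent to derivative (-3.37 ± 0.11; edgeR adjusted p = 2.2e-16), with 105 and 114 reads left in the 2 libraries. PSAT1, the second step, went from 59.9 ± 0.0446 to 52.1 ± 6.32 CPM (-0.20 ± 0.08; edgeR adjusted p = 0.033). Its call was lost with DESeq2, with the effective-length offset and without any 1 library other than the first of RPMI-8226-R. Without the second of that line it stood at -0.067 (edgeR adjusted p = 0.5), and its sign turned with total counts and on the TPM scale. Processed copies of PSAT1 held 12.9% to 17.7% as many reads as the gene, so that its level is uncertain. PSPH, the last step, did not pass, at 25.4 ± 2.86 and 30.4 ± 3.72 CPM (0.26 ± 0.12; edgeR adjusted p = 0.0592), but passed without the second library of either line (0.38 and 0.39).

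SHMT2 and MTHFD2, which act one after the other in the mitochondrion to turn serine into glycine and one-carbon units, parted. SHMT2 had 289 and 299.6 CPM in the libraries labelled NCI-BL2171, 313 and 325 in RPMI-8226 and 391 and 369 in RPMI-8226-R, a small rise from parent to derivative (0.25 ± 0.06; edgeR adjusted p = 0.00123). In TPM SHMT2 stood at 308 and 324, 275 and 274 and 461 and 475 in the same order of lines, so the size of the rise depends on the scale. SHMT2 was the most abundant of the 11 enzymes per length in each library. MTHFD2 stood at 386 and 387, 419.9 and 411 and 210.4 and 197 CPM in the same order and fell 2.04-fold (-1.03 ± 0.06; edgeR adjusted p = 5.5e-12). In RPMI-8226 the lead of SHMT2 over MTHFD2 was small, at 275 and 274 against 270 and 265 TPM. Processed copies of MTHFD2 held 7.79% to 9.26% as many reads as the gene, so the rank of SHMT2 in that line is uncertain. The cytosolic enzyme MTHFD1, named after its values were seen, rose from 41.4 ± 1.49 to 81.0 ± 4.12 CPM (0.97 ± 0.08; edgeR adjusted p = 3.7e-10). The ratio of MTHFD2 to MTHFD1, in TPM within a library, was 6.72 and 5.88 in RPMI-8226, 1.54 and 1.55 in RPMI-8226-R and 3.93 and 3.91 in the libraries labelled NCI-BL2171. MTHFD1L, the mitochondrial enzyme that follows MTHFD2, rose from 20.6 ± 0.379 to 35.9 ± 0.493 CPM (0.80 ± 0.09; edgeR adjusted p = 1.1e-07).

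ALDH1L2, which consumes one-carbon units in the mitochondrion, had 693 and 766 reads in the libraries labelled NCI-BL2171, 1 and 1 in RPMI-8226 and 4 and 0 in RPMI-8226-R. The ratio of counts, scaled by library totals, was 819 (95% counting interval 226 to 6773) for the libraries labelled NCI-BL2171 over RPMI-8226. Over RPMI-8226-R it was 378 (95% counting interval 147 to 1388). These exact binomial intervals cover counting error only, and ALDH1L2 shares 54414 bases with NOPCHAP1 on the opposite strand.

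Of the other 5 enzymes 4 fell and CBS rose. CTH, which makes cysteine from cystathionine, had 37.9 and 36.1 CPM in the libraries labelled NCI-BL2171, 9.93 and 10.2 in RPMI-8226 and 4.15 and 3.74 in RPMI-8226-R, a descending order without overlap (-1.35 ± 0.14 from parent to derivative; edgeR adjusted p = 3.0e-08). CBS, the enzyme just before it in the same pathway, rose from 86.1 ± 0.337 to 149 ± 8.89 CPM (0.79 ± 0.07; edgeR adjusted p = 1.1e-09). ASNS, asparagine synthetase and a classic ATF4 target, fell from 196 ± 7.46 to 111 ± 8.49 CPM (-0.81 ± 0.07; edgeR adjusted p = 7.9e-10) and was highest in the libraries labelled NCI-BL2171 at 399 ± 5.10 CPM. GPT2, the mitochondrial alanine transaminase, fell from 79.8 ± 3.40 to 44.2 ± 0.210 CPM (-0.85 ± 0.08), and PCK2, mitochondrial phosphoenolpyruvate carboxykinase, from 29.8 ± 0.769 to 18.0 ± 1.20 CPM (-0.73 ± 0.10). Both were highest in RPMI-8226.

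Among the genes of tRNA charging and export 5 rose, 2 fell and 3 did not pass. The 70% that passed are close to the 65.6% of all genes tested, of which 28.5% were higher and 37.2% lower. With TMM only IARS1 among these 10 changed by at least 2-fold, against 33.3% of all genes. Mean TPM went from 125 to 283 for MARS1 and from 20.3 to 47.7 for XPOT, so this count depends on the scale. IARS1 (ENSG00000196305.19; chromosome 9, 92210207 to 92293756), the isoleucine enzyme, had 240.4 and 256 CPM in the libraries labelled NCI-BL2171, 81.6 and 76.5 in RPMI-8226 and 178 and 181 in RPMI-8226-R. RPMI-8226 was the lowest, and the rise from it to the derivative was 2.28-fold (1.19 ± 0.07; edgeR adjusted p = 1.6e-12). XPOT, which exports tRNA from the nucleus, rose from 84.3 ± 0.698 to 166 ± 5.79 CPM (0.98 ± 0.06; edgeR adjusted p = 2.5e-11). A processed copy of XPOT held 29.1% to 35.9% as many reads as the gene in the 6 libraries, so that its level is uncertain.

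MARS1, the methionine enzyme, rose from 111 and 107 to 197 and 189 CPM, with 231 and 228 in the libraries labelled NCI-BL2171 (0.82 ± 0.06 from parent to derivative; edgeR adjusted p = 2.8e-10). Per length it ranked first among the 10 in every library, at 123 and 127 TPM in RPMI-8226 and 285 and 281 TPM in RPMI-8226-R. The deposited length behind those values was 828 to 893 bases, against 2725 to 2974 for AARS1, so the rank rests on a short mean transcript length. EPRS1, the joint enzyme for glutamate and proline, rose slightly, from 302 ± 7.80 to 389 ± 3.10 CPM (0.36 ± 0.06; edgeR adjusted p = 1.9e-05). AARS1, the alanine enzyme, passed at 0.15 ± 0.06 (edgeR adjusted p = 0.0343), a call lost with upper quartile scaling, with the effective-length offset and without either RPMI-8226 library or the second of RPMI-8226-R. GARS1 and NARS1, for glycine and asparagine, fell by 0.27 each on the log2 scale (edgeR adjusted p = 6.7e-04 and 6.7e-04), calls lost with total counts and turned in sign, without passing, on the TPM scale. SARS1, WARS1 and CARS1, for serine, tryptophan and cysteine, did not pass, with log2 fold changes of -0.03 ± 0.07, 0.14 ± 0.07 and -0.05 ± 0.08. All 3 passed as higher on the TPM scale, SARS1 at 0.29, WARS1 at 0.51 and CARS1 at 0.50 (limma adjusted p = 0.023, 0.00222 and 0.00382). With total counts SARS1 (0.18; edgeR adjusted p = 0.0429) and WARS1 (0.35; edgeR adjusted p = 2.0e-04) passed as higher, and CARS1 did not (0.16). WARS1 also passed without the second RPMI-8226-R library (0.25; edgeR adjusted p = 0.0027).

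Beyond the 40 genes, 104 others of the pathway were examined, of which 101 passed the filter on low counts. In RPMI-8226-R against RPMI-8226, 55 of these 101 were higher and 30 lower, beside 28.5% and 37.2% of all genes tested. Of the 4 eIF2 kinases none changed by as much as 2-fold. EIF2AK3 (PERK), which senses unfolded protein, and EIF2AK4 (GCN2), which senses uncharged tRNA, did not pass (0.04 ± 0.10 and 0.01 ± 0.08). EIF2AK1, which senses haem shortage, fell slightly (-0.25 ± 0.06; edgeR adjusted p = 8.9e-04) and EIF2AK2 (PKR), which senses viral RNA, rose slightly (0.27 ± 0.08; edgeR adjusted p = 0.00743). Of 9 genes of eIF2, its exchange factor eIF2B and PPP1R15B, 4 rose and 4 fell, led by the eIF2B subunits EIF2B1 (1.38 ± 0.08) and EIF2B4 (0.70 ± 0.09) among the rises, with EIF2B3 at -0.45 ± 0.08. The calls of EIF2AK1 and EIF2B3 did not hold on the TPM scale, where both signs turned, nor did that of EIF2AK2 without the first RPMI-8226 library (0.17; edgeR adjusted p = 0.175). The call of EIF2AK1 was also lost with total counts, and those of EIF2B3 and EIF2AK2 with the effective-length offset. With total counts EIF2AK3 and EIF2AK4 passed as higher (0.26 and 0.22, edgeR adjusted p = 0.043 and 0.0306). EIF2AK3 also passed as higher on the TPM scale (0.42, limma adjusted p = 0.0473).

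In a list of 20 other genes linked to ATF4 or to stress, 17 of the 19 that passed the filter were lower and 2 higher (median -1.92, or -0.62 on the scale of log2(TPM + 1)). Over all genes tested 37.2% were lower and 28.5% higher. Not all 17 falls held. On the TPM scale ATF6 passed as higher (0.50, limma adjusted p = 0.0151). VLDLR, JDP2, TXNIP, RIPOR1 and TNFRSF10B did not pass there. With total counts ATF6 and TNFRSF10B lost their calls. VLDLR had 3 reads in each RPMI-8226-R library. ATF3, a repressor induced by ATF4, fell from 218 ± 12.6 to 10.2 ± 0.212 CPM (-4.43 ± 0.08; edgeR adjusted p = 4.4e-20). The mTORC1 inhibitors SESN2 and DDIT4 had log2 fold changes of -2.64 ± 0.08 and -1.92 ± 0.06. GDF15, a stress-induced cytokine, had 45 reads in RPMI-8226 and 3 in RPMI-8226-R, a ratio of 13.8 (95% counting interval 4.44 to 69.6), against 12949 reads in the libraries labelled NCI-BL2171. The 2 that rose by edgeR with TMM were HMOX1, which degrades haem (0.41 ± 0.07), and XBP1, a plasma cell and unfolded protein response factor (0.29 ± 0.06).

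The remaining supply genes leaned upward, as did the transporters among the 40. For each list that follows, the shares over all genes tested were 28.5% higher and 37.2% lower. Of 14 other amino acid transporters that passed the filter, 11 were higher and 2 lower (median 0.96). SLC38A5, a glutamine and serine carrier, rose from 46.0 ± 0.0141 to 151 ± 10.3 CPM (1.71 ± 0.07) and SLC7A7, a light chain for cationic and neutral amino acids, from 5.32 ± 0.420 to 16.1 ± 1.91 CPM (1.60 ± 0.17). The falls were those of SLC7A2, with 9 to 33 reads per library of these lines (-1.24 ± 0.53; edgeR adjusted p = 0.0442), and SLC7A8, a light chain for neutral amino acids (-0.62 ± 0.13; edgeR adjusted p = 4.0e-04). The call of SLC7A2, a cationic amino acid transporter, was lost with DESeq2, with total counts and without any 1 library other than the first of RPMI-8226-R (-0.73 without the second). Of 14 other genes of cytosolic tRNA charging 11 were higher and 2 lower (median 0.47), and of 17 mitochondrial synthetases 14 were higher and 3 did not pass (median 0.55), by edgeR at the same threshold. AIMP2, a scaffold of the multisynthetase complex, rose from 11.1 ± 0.319 to 46.3 ± 2.47 CPM (2.06 ± 0.10), FARSB, a subunit of the phenylalanine enzyme, had 1.17 ± 0.07, and QARS1, the glutamine enzyme, fell (-0.22 ± 0.07). QARS1 was higher on the TPM scale (0.18; limma adjusted p = 0.031), and its call was lost with total counts and without the second RPMI-8226 library. The mitochondrial enzymes with the largest rises were MARS2 (1.46 ± 0.10) and EARS2 (1.01 ± 0.07).

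Of 24 other amino acid and one-carbon enzymes, 12 were higher, 4 lower and 8 did not pass. The 16 that passed are 66.7% of the list, close to the 65.6% of all genes tested. PYCR3, of proline synthesis, rose from 5.82 ± 0.441 to 32.2 ± 1.31 CPM (2.47 ± 0.13) and MAT2A, which makes S-adenosylmethionine, from 53.7 ± 0.726 to 198 ± 29.5 CPM (1.88 ± 0.09). PYCR1, the mitochondrial proline enzyme, rose slightly (0.19 ± 0.06; edgeR adjusted p = 0.0119; 0.16 and adjusted p = 0.137 without the first RPMI-8226 library), and ALDH18A1, at the head of that pathway, did not pass (0.11 ± 0.07), although it did with total counts (0.32) and without the second RPMI-8226-R library (0.19). GLUL, glutamine synthetase, fell from 86.1 ± 5.30 to 28.7 ± 2.47 CPM (-1.58 ± 0.08), and GOT1, the cytosolic aspartate transaminase, from 118 ± 3.87 to 53.7 ± 2.35 CPM (-1.14 ± 0.07).

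**Figure D3:**
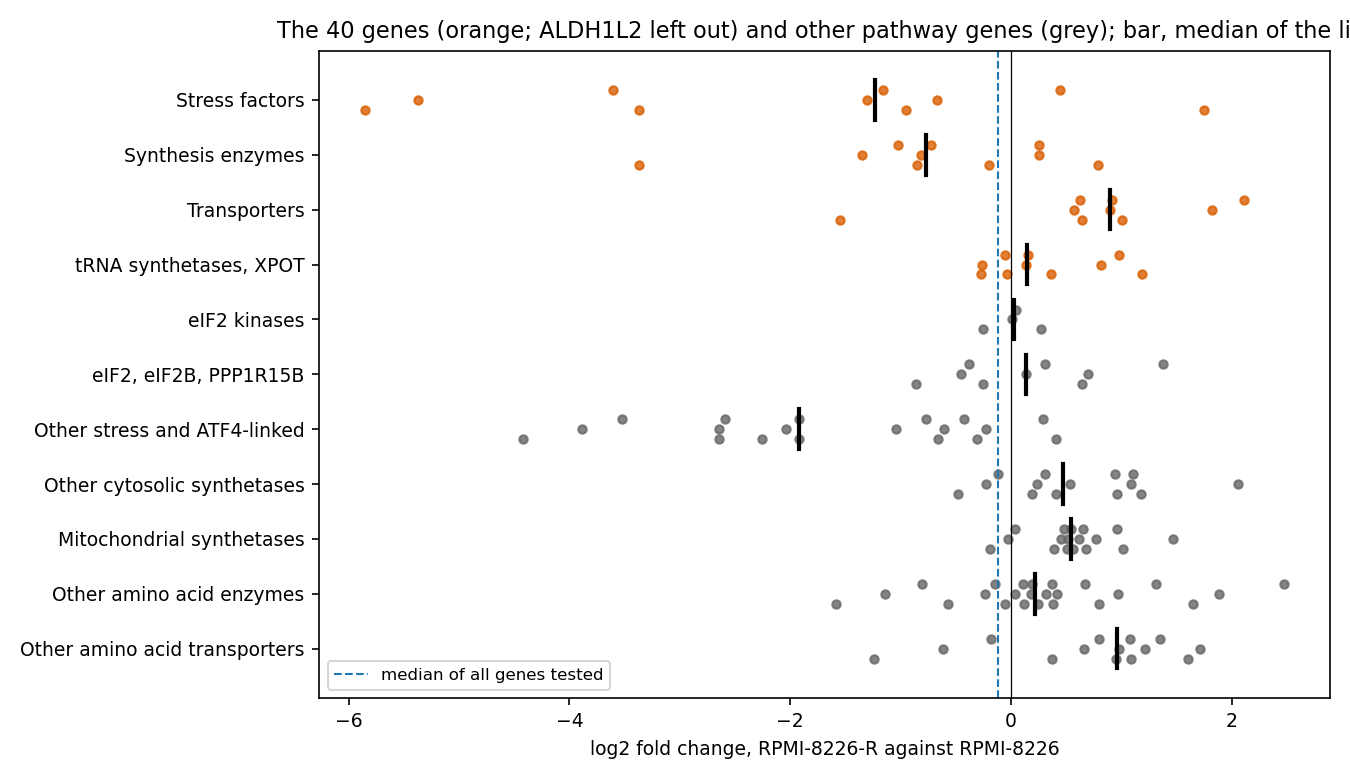
Log2 fold change in RPMI-8226-R against RPMI-8226 (x axis) of each gene, by list (y axis); orange points are the 40 genes without ALDH1L2, grey points the other genes of the pathway that passed the filter, black bars the median of each list and the dashed line the median of all genes tested, -0.12. Stress factors and other stress genes have medians of -1.24 and -1.92, and the 2 transporter lists medians of 0.89 and 0.96.

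The libraries labelled NCI-BL2171 were compared with each myeloma line. These comparisons share libraries with each other and with the one above, so their values are set side by side only. RPMI-8226 was higher for 12 and lower for 24 of the 40 genes, where 76.7% of all genes passed, 41.1% higher and 35.6% lower. At 2-fold or more it was higher for 7 and lower for 15, where 48.7% of all genes passed, 28.0% higher and 20.7% lower. RPMI-8226-R was higher for 10 and lower for 28, where 77.4% of all genes passed, 39.2% higher and 38.2% lower. At 2-fold or more it was higher for 6 and lower for 16, where 50.4% of all genes passed, 25.8% higher and 24.6% lower. The libraries labelled NCI-BL2171 held the highest level, past the threshold against the next line, of 23 of the 40 genes, RPMI-8226-R of 8 and RPMI-8226 of 6. No share of all genes tested was computed for such orders of the lines, here or in the groups below. These counts are therefore not read as particular to the 40 genes.

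Of the genes of tRNA charging, all but NARS1 and XPOT were highest in the libraries labelled NCI-BL2171. RPMI-8226 was lower than those libraries for 9 of 10 (edgeR at the same threshold), with NARS1 at 0.07 ± 0.06. Among all genes tested, 35.6% were lower and 41.1% higher in RPMI-8226 than in the libraries labelled NCI-BL2171. WARS1 stood at 297 and 304 CPM there, 62.4 and 64.2 in RPMI-8226 and 74.6 and 64.4 in RPMI-8226-R, and SARS1 at 237 and 233, 62.7 and 54.8 and 57.8 and 57.0 CPM. For both genes the myeloma lines lay close together, far below the libraries labelled NCI-BL2171 (log2 fold change of RPMI-8226 against these -2.25 ± 0.07 for WARS1). XPOT was slightly higher in RPMI-8226-R than in the libraries labelled NCI-BL2171 (0.21 ± 0.06; edgeR adjusted p = 0.0052), a call lost with upper quartile scaling.

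For 6 of 9 transporters the order was RPMI-8226-R highest, RPMI-8226 in the middle and the libraries labelled NCI-BL2171 lowest. These were SLC7A5, SLC7A1, SLC1A4, SLC38A1, SLC38A2 and SLC6A9, although for SLC6A9 the lower 2 lines did not pass against each other (0.33 ± 0.18; edgeR adjusted p = 0.102). The widest span was that of SLC1A4, with a log2 fold change of 2.48 ± 0.07 in RPMI-8226 and 3.49 ± 0.07 in the resistant line, both against the libraries labelled NCI-BL2171. SLC7A11 and SLC1A5 were highest in the libraries labelled NCI-BL2171 instead. Among the stress factors, 7 of 10 were highest in those libraries and ATF4, NUPR1 and STC2 in RPMI-8226, while none was highest in RPMI-8226-R. Erythroid markers differ by a wide margin between these libraries and the myeloma lines, and their part in these differences was not tested.

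In sum over the group, the 10 stress factors reached 1078 and 1113 TPM in the 2 libraries labelled NCI-BL2171, 974 and 1012 in RPMI-8226 and 436 and 455 in RPMI-8226-R. The 9 transporters reached 373 and 383, 471 and 481 and 531 and 612 TPM in the same order. For tRNA charging the sums were 1645 and 1737, 719 and 695 and 1058 and 1120.0 TPM, with RPMI-8226 lowest. The synthesis enzymes summed to 1193 and 1222, 862 and 826 and 888 and 902 TPM, where both myeloma lines lay below the third group. RPMI-8226-R lay slightly above RPMI-8226 in this sum, although 7 of the enzymes were lower in it by edgeR. SHMT2 alone went from 275 and 274 TPM in RPMI-8226 to 461 and 475 TPM in RPMI-8226-R.

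**Figure D4:**
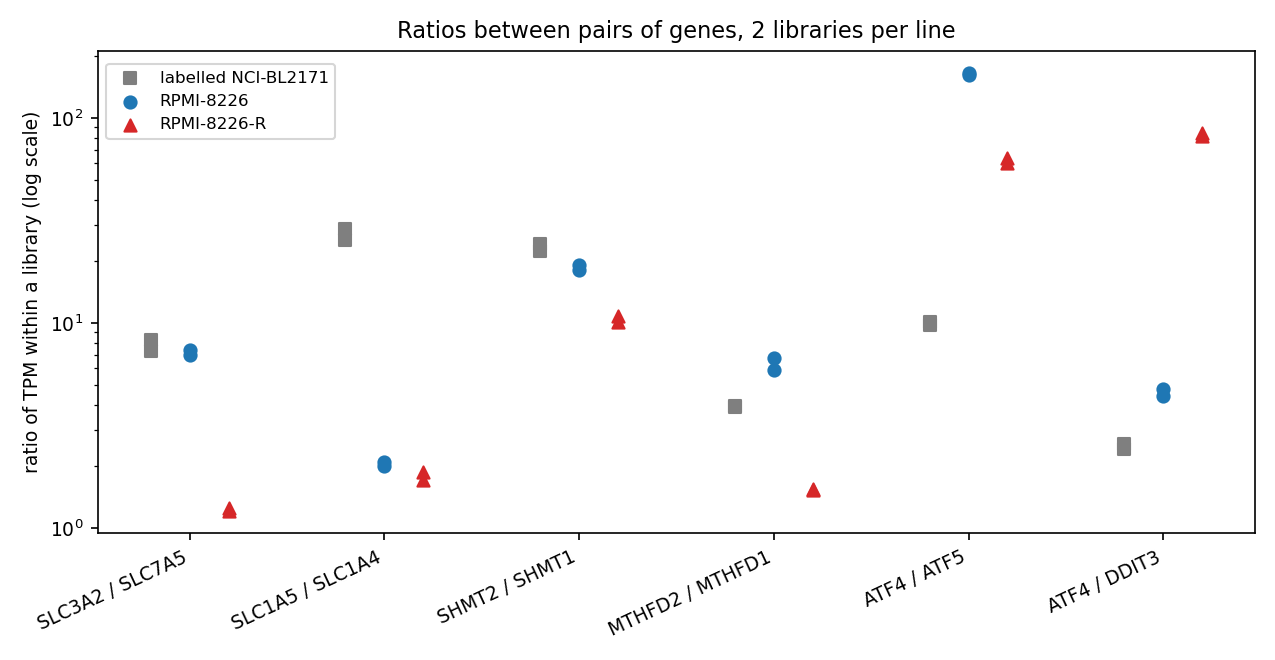
Ratio of TPM of 2 genes within 1 library (y axis, log scale) for 6 pairs (x axis); squares stand for the libraries labelled NCI-BL2171, circles for RPMI-8226 and triangles for RPMI-8226-R, 2 points each. ATF4 over DDIT3 was 82.0 and 84.9 in RPMI-8226-R against 4.77 and 4.38 in RPMI-8226, and SHMT2 over its cytosolic counterpart SHMT1 was 10.1 and 10.8 against 19.2 and 18.2.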

How the data were processed

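One table per library was deposited. Per the file headers it holds for each gene an estimated count of reads, a TPM value and an effective length. The TPM values were computed by the authors and are relative to each library. GRCh38.p13 is named in the submitters' processing notes, and the sources used here do not name a quantifier, annotation or strand setting. Of the estimated counts, 97.7% were whole, and all were rounded. Copies of 46 pseudoautosomal genes on Y (88666 reads) were added to those on X, and 61399 of 61498 genes received a symbol.

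Counts were tested with the quasi-likelihood F test of edgeR 4.0.16 (R 4.3.3) on all 6 libraries, with TMM scaling, filterByExpr (minimum count 10, minimum total 15), 1 mean per line and Benjamini-Hochberg adjustment over 20081 genes at 0.05. The script was tested on simulated data. Libraries of a line differed by more than sampling noise and were counted as 2 samples, numbered as in their titles. For the libraries labelled NCI-BL2171, the names of the deposited tables carry the numbers the other way round. Alternatives were DESeq2 1.42.0, limma 3.58.1 (trend on log2(TPM + 1), voom), other scalings, an effective-length offset, no filter, a replicate block and leaving out each library, and, chosen after seeing the data, the 4 RPMI libraries alone.

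The 40 genes and all lists were chosen with earlier results of these data known. All 40 are named. Of the other pathway genes, the eIF2 kinases, PPP1R15B, ATF3, SESN2, DDIT4, GDF15, PYCR1, ALDH18A1 and MTHFD1L are named whatever their change, and otherwise up to 2 rises and 2 falls per list. One result under this rule is not reported here. SHMT1, MTHFD1, the TPM ratios and the other stress genes whose calls depended on the scaling were added after values were seen.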

Additional observations from a re-analysis of the deposited data

How the results depend on the processing

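Of 1705 values of single genes recomputed under the alternatives in the 3 comparisons, 1638 kept their direction and their side of the threshold, 30 lost a call, 16 gained one and 21 changed sign. The falls of ATF4, DDIT3, PPP1R15A, CHAC1, PHGDH and SLC3A2 and the rises of TRIB3, SLC7A11, SLC38A1 and IARS1 in RPMI-8226-R against RPMI-8226 kept both under every alternative run. Over all genes, the count lower there went from 7461 to 4557 on the TPM scale (limma-trend on log2(TPM + 1)). The signs that turned in this comparison were, with total counts, those of PSAT1 (0.012), SARS1 (0.18) and CARS1 (0.16). On the TPM scale they were PSAT1 (0.15), SARS1 (0.29), GARS1 (0.14), NARS1 (0.15) and CARS1 (0.50). SARS1 also turned with DESeq2 (0.013) and CARS1 with the effective-length offset (0.19), and in the 4 RPMI libraries alone both did (0.048 and 0.029). Leaving out 1 library moved SARS1 between -0.13 and 0.069. For RPMI-8226 against the libraries labelled NCI-BL2171, SHMT2 turned with total counts (-0.049), the effective-length offset (-0.00043) and the TPM scale (-0.20), MTHFD2 with total counts and the TPM scale (-0.061 and -0.064), and NARS1 with the same 2 (-0.094 and -0.16). For RPMI-8226-R against those libraries PCK2 turned on the TPM scale (0.069). The cause was not tested. Same-numbered libraries did not deviate together (correlations of deviations 0.033, -0.0035 and 0.013). With 2 libraries per line this cannot exclude that same-numbered libraries were prepared together. Exchanging the numbers of the libraries labelled NCI-BL2171 would change only the signs of the first 2 correlations. With a replicate block 18 of the 40 were higher and 18 lower in RPMI-8226-R against RPMI-8226, the added call being PSPH (0.25; edgeR adjusted p = 0.0489), and SLC7A2 lost its call (-1.31; edgeR adjusted p = 0.0685). With total counts 20 of the 40 were higher and 15 lower, and on the TPM scale 21 and 15, against 17 and 18. Leaving out a library moved these counts between 15 and 18 higher and between 17 and 18 lower. With 2 libraries per line, small differences are not resolved.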
